A study of Mus musculus with 4 samples.

Results

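The 10 genes described here are Slc7a11, Gclc, Gclm, Gpx4, Aifm2, Acsl4, Lpcat3, Nqo1, Txnrd1 and Srxn1, which act in the defence against ferroptosis or belong to the antioxidant program of the transcription factor NRF2. They were taken by gene symbol out of 49585 genes in the deposited table. The rule itself uses no measured value, but the genes were chosen with earlier results of these data known. All 10 were among the 12669 genes with an FPKM (fragments scaled for exon length and for the total of the library) of at least 1 in at least 1 library. With the iron chelator deferasirox (DFX), Slc7a11 was at least 2-fold higher in both 4T1 clones and Srxn1 in 4T1–HM. Acsl4 was at least 2-fold lower in 4T1–HM (log2 fold change −1.41) and fell by less in 4T1–LM (−0.66). Nqo1 was lower in both clones, at −0.94 in 4T1–HM and −1.0002 in 4T1–LM, where alone it was past 2-fold. Gclc, Gclm, Gpx4, Lpcat3 and Txnrd1 had log2 fold changes of opposite sign in the 2 clones, as did 23.0% of expressed genes. Of these, Lpcat3 was at only 0.03 in 4T1–LM, and the Gpx4 values are uncertain because its transcripts share sequence with other genes.

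Ferroptosis is a form of cell death driven by iron and by peroxidation of the polyunsaturated fatty acids in membrane phospholipids. Cystine taken up by the transporter SLC7A11 feeds the synthesis of glutathione, which the peroxidase GPX4 spends to reduce lipid peroxides, and FSP1, the product of Aifm2, traps lipid radicals by a separate route through ubiquinone. ACSL4 and LPCAT3 place polyunsaturated fatty acids into phospholipids and so supply the substrate. NRF2 is held back by KEAP1 and, when released, pairs with small MAF proteins at antioxidant response elements, where BACH1 competes with it. DFX is an oral iron chelator, and carcinoma cells are known for a high demand for iron.

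The cells were 4T1, a murine mammary carcinoma line used as a model of triple–negative breast cancer (TNBC). 4T1–HM (highly metastatic) and 4T1–LM (lowly metastatic) are each 1 clone grown from a single cell by limiting dilution, so a difference between them is a difference between 2 clones and not between 2 classes of tumor. Each clone was cultured for 48 h with 50 μmol/L of DFX (HM_DFX, LM_DFX) or with the equivalent DMSO (HM_Ctrl, LM_Ctrl). The study asked why the clones differ in their tolerance of a change in iron.

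Each of the 4 conditions had 1 library, so the spread between cultures is unknown and no test was run. Recovered totals ran from 14363065 to 21883855 fragments. Epcam, Cdh1, Krt8 and Krt18, epithelial markers, were at 13.5 FPKM or more in every library, Krt14 was between 1.90 and 54.3, and Krt5 was listed at 0. All 6 haematopoietic markers were below 1 FPKM, their sum reaching at most 0.0550, and 4 of 5 endothelial and fibroblast markers were below 1, the other being Pdgfra at 2.77 to 5.50. The summed FPKM of the 6 epithelial markers went from 1489 without DFX to 445 with it in 4T1–HM and from 2076 to 932 in 4T1–LM. It moved with DFX in both clones, and its part in the values below was not tested. Each culture was of 1 clone. In bulk RNA, a change in every cell of a culture and a change in some of its cells cannot be told apart.

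At the level of FPKM, which is scaled for gene length, the 10 genes ran from 1.52 to 157. Gpx4 was highest of the 10 in every library, followed by Acsl4 and Txnrd1 in an order that differed between libraries. Slc7a11 was lowest in both controls, at 2.57 FPKM in HM_Ctrl and 1.52 FPKM in LM_Ctrl, and Aifm2 was lowest in both DFX libraries, where its exact Poisson interval overlapped that of Nqo1. Gclc, Gclm and Nqo1 overlapped in the same way in both controls, as did Srxn1 and Lpcat3 in HM_Ctrl and Txnrd1 and Acsl4 in LM_Ctrl. In HM_DFX, Acsl4 overlapped Srxn1, and Gclm, Slc7a11 and Gclc followed one another with overlapping intervals. All other neighbours in the order of FPKM had separate 95% intervals, which cover counting error only.

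**Figure D1:**
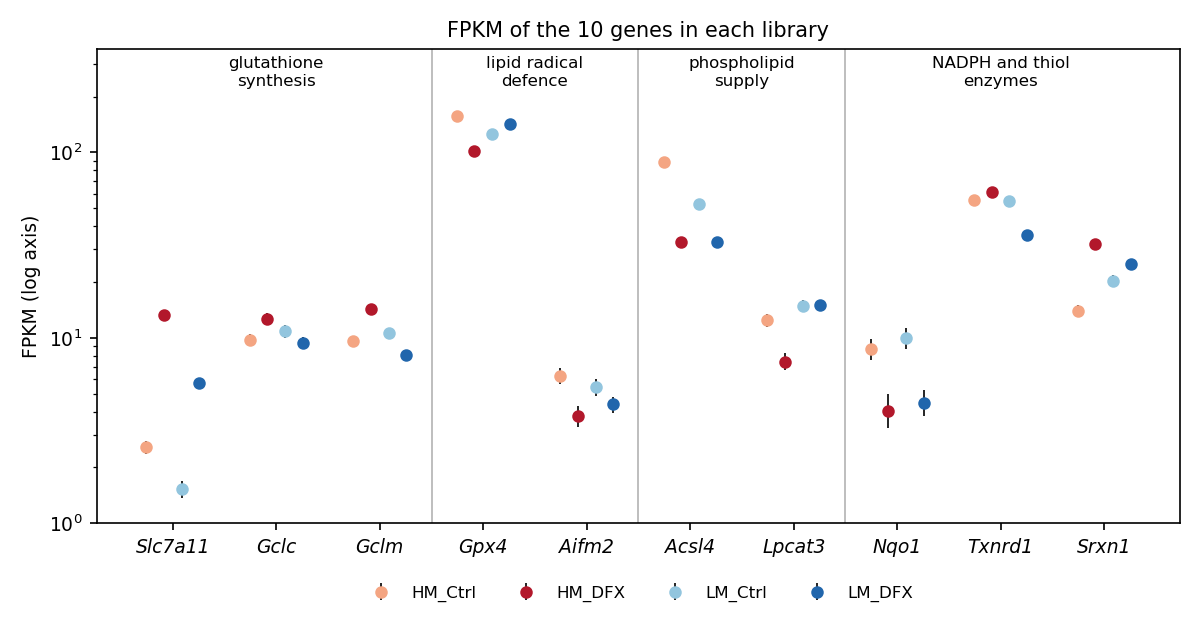
FPKM on a log axis (vertical) of the 10 genes (horizontal, grouped by role) in the 4 libraries, 1 point per library, with 95% exact Poisson intervals that cover counting error only. Slc7a11 lies between 1.52 and 13.2 FPKM with both DFX points above both control points, and the Gpx4 points lie between 101 and 157 FPKM.

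The promoter windows of the genes that rose 2-fold, and of those with an antioxidant response core of the first form, are shown. The transcription factors NRF2 and ATF4 bind short elements of the kind marked in them. RefSeq windows (build GRCm38.p6, 250 bases before to 50 bases after the transcription start, 300 bases each) were given for 9 of the 10 genes, 14 windows in all. The first form of the antioxidant response core, TGACNNNGC on either strand, was found in 3 of the 14 windows and in 12.4% of 32851 windows of all genes. A second form, TGAGNNNGC, and the amino acid response core TGATGNAA, to which ATF4 dimers bind, were searched after the windows had been read. They were present in 17.6% and 3.97% of all windows. Capitals mark the matches to these 3 cores.
Slc7a11 (chr3:50443564-50443863, minus strand): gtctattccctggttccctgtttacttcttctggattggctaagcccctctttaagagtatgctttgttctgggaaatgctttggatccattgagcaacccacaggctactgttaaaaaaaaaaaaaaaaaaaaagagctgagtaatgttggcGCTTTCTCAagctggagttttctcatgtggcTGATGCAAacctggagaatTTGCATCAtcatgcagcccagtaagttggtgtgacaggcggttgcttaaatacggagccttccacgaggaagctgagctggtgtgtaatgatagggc
Srxn1 (chr2:152105274-152105573, plus strand): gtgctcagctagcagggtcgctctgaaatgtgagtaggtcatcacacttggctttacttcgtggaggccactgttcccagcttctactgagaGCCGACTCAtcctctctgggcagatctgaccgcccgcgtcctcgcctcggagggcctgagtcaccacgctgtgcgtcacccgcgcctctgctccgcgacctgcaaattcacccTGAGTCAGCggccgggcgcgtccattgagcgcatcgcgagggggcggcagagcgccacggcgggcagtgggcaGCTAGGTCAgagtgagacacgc
Gclm (chr3:122245307-122245606, plus strand): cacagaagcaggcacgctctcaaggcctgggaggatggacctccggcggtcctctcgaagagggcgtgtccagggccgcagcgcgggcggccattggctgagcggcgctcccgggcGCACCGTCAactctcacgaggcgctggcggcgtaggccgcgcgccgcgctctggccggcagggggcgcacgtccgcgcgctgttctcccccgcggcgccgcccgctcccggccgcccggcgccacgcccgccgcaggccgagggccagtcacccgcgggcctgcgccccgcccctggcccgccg
Txnrd1 (chr10:82858956-82859255, plus strand, the second of 3 starts): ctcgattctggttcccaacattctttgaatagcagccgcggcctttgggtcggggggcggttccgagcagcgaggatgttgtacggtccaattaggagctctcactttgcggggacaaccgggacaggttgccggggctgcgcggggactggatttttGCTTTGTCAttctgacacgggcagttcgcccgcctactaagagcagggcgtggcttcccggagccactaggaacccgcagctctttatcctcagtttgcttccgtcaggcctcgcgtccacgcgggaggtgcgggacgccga
The Slc7a11 window held no first form of the antioxidant core, 1 second form that began 97 bases before the start, and 2 amino acid response cores in opposite orientation that began 66 and 47 bases before it. The amino acid core was in no other window of the 10 genes. Among 103 further genes of the pathway with a window, described below, it was in those of Chac1 and Ptgr1. The Srxn1 window held the first form at base 29 from the start and the second form 45 and 158 bases before it. The single first form match lay 134 bases before the start in Gclm and 92 bases before it in Txnrd1. The windows of Nqo1 and Aifm2 held none of the searched cores, and that of Acsl4 held the second form 2 times. The hypoxia response cores, ACGTG and GCGTG on either strand, were searched because the hydroxylases that mark HIF for breakdown need iron. ACGTG was in 1 of the 14 windows, that of Gclm, against 19.6% of all windows, and GCGTG was in 10 of them, from 6 genes, against 32.4% of all windows. In the windows of the 103 further genes the shares were 29.2% for ACGTG and 51.8% for GCGTG. The 14 windows are not independent, since 2 of the Gpx4 windows overlap and hold the same GCGTG matches. The antioxidant, amino acid and hypoxia cores do not overlap by their letters in these windows, and a match is a description of the letters only.

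**Figure D2:**
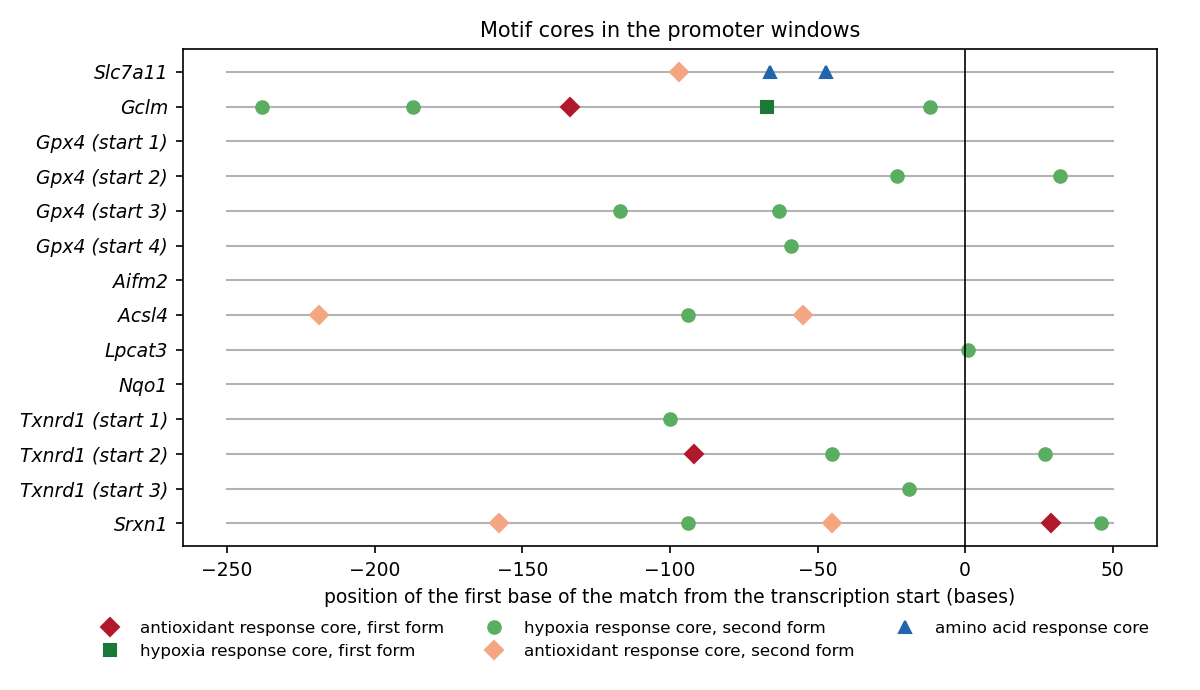
Position of the first base of each match, in bases from the transcription start (horizontal), in the 14 promoter windows (1 line each), where the marker shape gives the core. The 2 amino acid response cores are in the Slc7a11 window, and first forms of the antioxidant core are in the windows of Gclm, Txnrd1 (start 2) and Srxn1.

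Slc7a11, the cystine and glutamate exchanger, rose with DFX in both clones. The gene (ENSMUSG00000027737, chr3:49892526-50443614, minus strand, mm10) was at 2.57 FPKM in HM_Ctrl, 13.2 FPKM in HM_DFX, 1.52 FPKM in LM_Ctrl and 5.73 FPKM in LM_DFX, from 598, 2641, 333 and 1745 fragments. Both DFX libraries were above both controls. On the scale of log2(FPKM + 1), used for every fold change here, the difference was 1.99 in 4T1–HM and 1.42 in 4T1–LM. The pseudocount of 1 shrinks the difference of so low a gene, and the ratio of fragment shares without it was 2.36 on the log2 scale in 4T1–HM (95% exact counting interval 2.24 to 2.49) and 1.91 in 4T1–LM (1.74 to 2.09). Of all expressed genes, 99.1% had a lower log2 fold change than Slc7a11 in 4T1–HM and 96.6% had a lower one in 4T1–LM. Between the clones under DFX, Slc7a11 was 2.11-fold higher in HM_DFX than in LM_DFX, the only one of the 10 genes past 2-fold in that comparison.

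Its partner Slc3a2, the heavy chain that carries SLC7A11 to the membrane, also rose in both clones, from 76.8 to 216 FPKM in 4T1–HM and from 62.6 to 185 FPKM in 4T1–LM. The FPKM ratio of Slc3a2 to Slc7a11 went from 29.9 without DFX to 16.4 with it in 4T1–HM and from 41.2 to 32.3 in 4T1–LM. The heavy chain, which other amino acid transporters share, thus stayed the more abundant transcript in all 4 libraries.

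Gclc and Gclm encode the catalytic and the modifier subunit of glutamate cysteine ligase, the rate–limiting enzyme of glutathione synthesis. Neither passed 2-fold in any comparison. Gclc (ENSMUSG00000032350, chr9:77754535-77794485, plus strand) was at 9.74 FPKM in HM_Ctrl, 12.6 FPKM in HM_DFX, 10.8 FPKM in LM_Ctrl and 9.36 FPKM in LM_DFX. Its log2 fold change with DFX was 0.35 in 4T1–HM and −0.19 in 4T1–LM. Gclm (ENSMUSG00000028124, chr3:122245557-122270732, plus strand) was at 9.60 FPKM in HM_Ctrl, 14.3 FPKM in HM_DFX, 10.7 FPKM in LM_Ctrl and 8.12 FPKM in LM_DFX. Its log2 fold change was 0.53 in 4T1–HM and −0.36 in 4T1–LM. For both subunits HM_DFX was the highest and LM_DFX the lowest of the 4 libraries, and the counting interval of each response lay on its own side of 0. The FPKM ratio of Gclm to Gclc was 0.986 in HM_Ctrl and 0.985 in LM_Ctrl, 1.13 in HM_DFX and 0.868 in LM_DFX. The response of 4T1–HM minus that of 4T1–LM was 0.54 for Gclc and 0.89 for Gclm on the log2 scale, with counting SEs of 0.11 and 0.09. Small parts of the Gclm exons overlap Gm6061 on the same strand (3.88%) and Gm17494 on the opposite strand (4.71%).

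Gpx4, the selenoprotein that reduces phospholipid hydroperoxides, did not pass 2-fold in any comparison. It (ENSMUSG00000075706, chr10:80047166-80056439, plus strand) was at 157 FPKM in HM_Ctrl, 101 FPKM in HM_DFX, 125 FPKM in LM_Ctrl and 143 FPKM in LM_DFX, from 2508 to 5389 fragments. HM_DFX was the lowest library and LM_DFX lay between the 2 controls. Its log2 response was −0.62 in 4T1–HM and 0.19 in 4T1–LM, a difference between the responses of −0.81 (counting SE 0.05). These values are uncertain, because 38.9% of the 31–base words in the Gpx4 transcripts also occur in other genes. RP23-269H21.1 (ENSMUSG00000110841), which shares 37.9% of them, was itself at 47.5 FPKM in HM_Ctrl, 32.3 FPKM in HM_DFX, 44.7 FPKM in LM_Ctrl and 51.7 FPKM in LM_DFX. It too was lowest in HM_DFX, and how the counting divided reads between both genes was not tested. A gene value also cannot separate the cytosolic, mitochondrial and nuclear forms of GPX4.

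Aifm2 (ENSMUSG00000020085, chr10:61715263-61739260, plus strand) encodes FSP1, the reductase of the ubiquinone route. It was at 6.22 FPKM in HM_Ctrl, 3.78 FPKM in HM_DFX, 5.43 FPKM in LM_Ctrl and 4.37 FPKM in LM_DFX. Both DFX libraries were below both controls, by a log2 fold change of −0.59 in 4T1–HM and −0.26 in 4T1–LM, neither past 2-fold. The counting intervals, −0.96 to −0.48 and −0.52 to −0.10, did not include 0. Of the exon bases of Aifm2, 5.65% overlap H2afy2 on the opposite strand, a gene at 0.0292 FPKM or less in these libraries. The FPKM ratio of Gpx4 to Aifm2 went from 25.2 without DFX to 26.8 with it in 4T1–HM and from 23.1 to 32.7 in 4T1–LM.

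Acsl4, the ligase that activates arachidonic and adrenic acid for esterification, fell in 4T1–HM. The gene (ENSMUSG00000031278, chrX:142317993-142390535, minus strand) was at 88.8 FPKM in HM_Ctrl, 32.8 FPKM in HM_DFX, 52.8 FPKM in LM_Ctrl and 33.1 FPKM in LM_DFX, from 2544 to 8033 fragments. The controls were apart and the DFX libraries met at the same level. With DFX the log2 fold change was −1.41 in 4T1–HM, where only 5.12% of expressed genes had a lower value, and −0.66 in 4T1–LM, where 17.6% did. Between the controls it was 0.74 higher in HM_Ctrl, and between the DFX libraries the log2 difference was −0.01 with a counting interval from −0.09 to 0.06. The response of 4T1–HM minus that of 4T1–LM was −0.75 (counting SE 0.05).

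Lpcat3, the acyltransferase that inserts polyunsaturated acyl chains into lysophospholipids, had its lowest level in HM_DFX. It (ENSMUSG00000004270, chr6:124663027-124704418, plus strand) was at 12.4 FPKM in HM_Ctrl, 7.44 FPKM in HM_DFX, 14.8 FPKM in LM_Ctrl and 15.1 FPKM in LM_DFX. Its response to DFX was −0.67 in 4T1–HM and 0.03 in 4T1–LM, and HM_DFX against LM_DFX was −0.93, so that no comparison passed 2-fold on this scale. The last ratio was −1.02 without the pseudocount (counting interval −1.20 to −0.85). Of its exon bases, 10.2% overlap Emg1 on the opposite strand, a gene at 14.2 FPKM in HM_Ctrl, 15.0 FPKM in HM_DFX, 19.3 FPKM in LM_Ctrl and 17.1 FPKM in LM_DFX. The library kit keeps the strand, but the strand setting of the authors' counting is not given in the sources used here. The FPKM ratio of Acsl4 to Lpcat3 went from 7.15 without DFX to 4.41 with it in 4T1–HM and from 3.56 to 2.19 in 4T1–LM.

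The other 3 genes are classic NRF2 targets, and they did not move together. Nqo1 (ENSMUSG00000003849, chr8:107388225-107403206, minus strand), a quinone reductase, was at 8.69 FPKM in HM_Ctrl, 4.03 FPKM in HM_DFX, 9.95 FPKM in LM_Ctrl and 4.47 FPKM in LM_DFX. Both DFX libraries were below both controls. The log2 fold change was −0.94 in 4T1–HM, just short of 2-fold, and −1.0002 in 4T1–LM, just past it. Nqo1 rested on 90 to 243 fragments, the fewest of the 10 genes in every library, and the counting intervals ran from −1.48 to −0.75 in 4T1–HM and from −1.46 to −0.85 in 4T1–LM, around fragment ratios without the pseudocount of −1.11 and −1.15. Its responses in the 2 clones differed by 0.06 with a counting SE of 0.23, so the call in a single clone is no sign of a difference between the clones. With median–ratio scaling of the libraries, the value in 4T1–LM was no longer past 2-fold.

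Srxn1, which repairs overoxidized peroxiredoxins, rose in 4T1–HM. It (ENSMUSG00000032802, chr2:152105516-152111376, plus strand) was at 14.0 FPKM in HM_Ctrl, 32.1 FPKM in HM_DFX, 20.3 FPKM in LM_Ctrl and 25.1 FPKM in LM_DFX. HM_Ctrl was the lowest and HM_DFX the highest of the 4 libraries. The log2 fold change was 1.14 in 4T1–HM (counting interval 1.06 to 1.34 for the fragment shares) and 0.29 in 4T1–LM (0.19 to 0.43). The FPKM ratio of Srxn1 to Nqo1 went from 1.61 without DFX to 7.97 with it in 4T1–HM and from 2.04 to 5.62 in 4T1–LM, so these NRF2 targets moved apart in both clones.

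Txnrd1, the cytosolic thioredoxin reductase, did not pass 2-fold in any comparison. It (ENSMUSG00000020250, chr10:82859206-82897724, plus strand) was at 55.5 FPKM in HM_Ctrl, 60.9 FPKM in HM_DFX, 54.6 FPKM in LM_Ctrl and 35.8 FPKM in LM_DFX. LM_DFX stood below the other 3 libraries. With DFX it was at 0.13 on the log2 scale in 4T1–HM and −0.60 in 4T1–LM, and the responses differed by 0.73 (counting SE 0.04).

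Counted over the 10 genes, 2 were at least 2-fold higher in HM_DFX than in HM_Ctrl (Slc7a11 and Srxn1), where 6.93% of expressed genes were, and 1 was lower (Acsl4), where 12.4% were. In LM_DFX against LM_Ctrl 1 gene was higher (Slc7a11; background 7.09%) and 1 was lower (Nqo1; background 8.72%). The median log2 fold change of the 10 genes was −0.23 in 4T1–HM and −0.23 in 4T1–LM, against −0.10 and −0.04 over all expressed genes. The genes thus moved in both directions. Of the 10 genes, 5 had log2 fold changes of opposite sign in the 2 clones, namely Gclc, Gclm, Gpx4, Lpcat3 and Txnrd1, as did 23.0% of expressed genes. The 2 responses share no library.

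**Figure D3:**
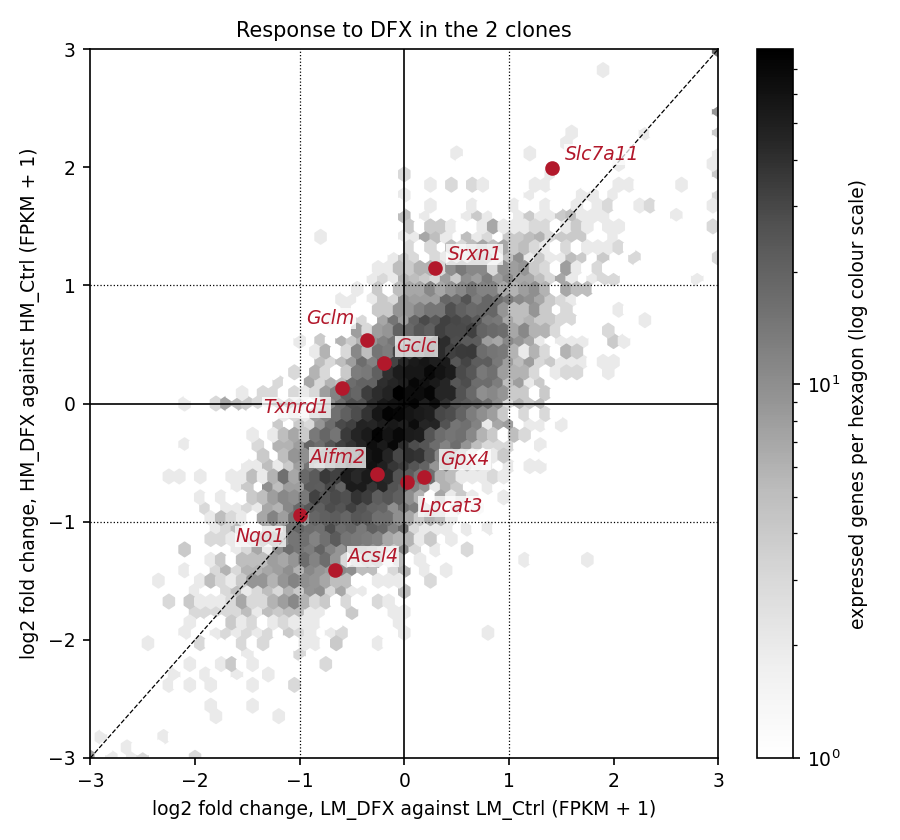
Log2 fold change of FPKM + 1 with DFX in 4T1–LM (horizontal) and 4T1–HM (vertical) for the 10 genes (red points) over the 12669 expressed genes (grey hexagons, darker for more genes; values beyond 3 are drawn at the edge). Dotted lines mark 2-fold and the dashed line equal responses. Slc7a11 lies past 2-fold in both clones, and Gclc, Gclm and Txnrd1 lie on the opposite side of the dashed line from Gpx4, Lpcat3 and Acsl4.

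Between the controls, none of the 10 was at least 2-fold higher or lower in HM_Ctrl than in LM_Ctrl, where 3.65% and 3.15% of expressed genes were, so that a count of 0 among 10 is near the background. Their log2 differences ran from −0.51 (Srxn1) to 0.74 (Acsl4), with a median of −0.06 against 0.01 over all expressed genes. Of all expressed genes, 93.2% had a lower value than Acsl4, 86.7% a lower one than Slc7a11 and 11.2% a lower one than Srxn1. Under DFX, 1 gene was higher in HM_DFX than in LM_DFX (Slc7a11; background 3.31%) and none was lower (background 5.05%). The nearest to 2-fold lower was Lpcat3. Above 0 but under 2-fold in that comparison were Txnrd1 and Gclm at 0.75 each, Gclc at 0.40 and Srxn1 at 0.34, and the median of the 10 was 0.17 against −0.05 over all expressed genes. The difference between the responses, 4T1–HM minus 4T1–LM, reached 2-fold for none of the 10 in either direction (background 3.52% higher and 5.38% lower). It was 0.85 for Srxn1 (counting SE 0.09) and 0.58 for Slc7a11 (0.11). It was below 0 for Gpx4, Acsl4, Lpcat3 and Aifm2, the 4 genes of lipid radical defence and phospholipid supply, the last at −0.33 (counting SE 0.16). In all, 6 of the 10 genes were above 0 and 4 below, while 43.5% of expressed genes were above 0 and 56.5% below. The further genes of the same pathways, listed next, were mostly below 0, with 10 above and 21 below among other NRF2 targets (median −0.20) and 6 above and 16 below among other glutathione and thiol enzymes (median −0.15). How far separate cultures of a clone vary is not known from these libraries.

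**Figure D4:**
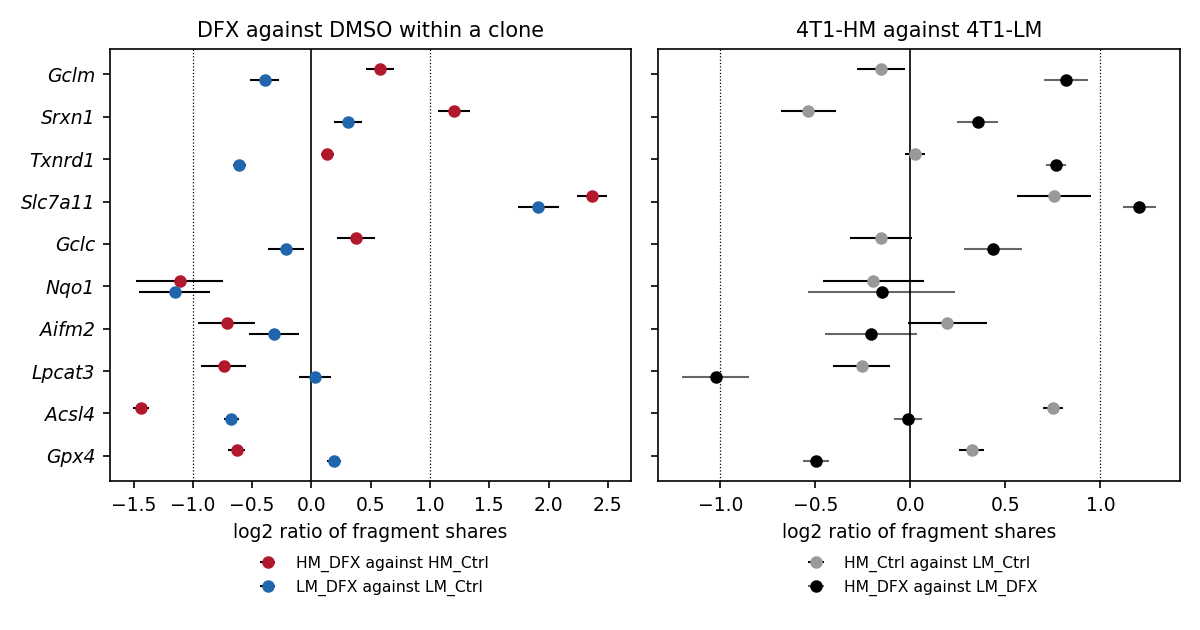
Log2 ratio of fragment shares without a pseudocount (horizontal) for each gene (vertical), for DFX against DMSO within a clone (left) and for 4T1–HM against 4T1–LM (right), with 95% exact intervals that cover counting error only and dotted lines at 2-fold. Genes are ordered by the difference between the responses, from Gclm (0.89) at the top to Gpx4 (−0.81) at the bottom.

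Around these 10 genes, 125 further genes of the pathway were listed from general knowledge in 5 groups, and 110 of them were expressed. In 4T1–HM 13 were at least 2-fold higher (background 6.93% of expressed genes) and 20 lower (12.4%) with DFX. In 4T1–LM 15 were higher (7.09%) and 12 lower (8.72%). The counts of each list below are to be read against the same backgrounds. The named genes follow a rule of size, with 6 more taken by name.

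Among the 11 regulators of NRF2, all expressed, 5 rose at least 2-fold in 4T1–HM (background 6.93%) and 4 in 4T1–LM (7.09%). None fell in either clone (background 12.4% and 8.72%). Mafk, a small MAF partner of both NRF2 and BACH1, rose from 10.5 to 49.1 FPKM in 4T1–HM and from 9.34 to 31.7 FPKM in 4T1–LM. Maff, another small MAF, rose by log2 fold changes of 1.45 and 2.23. Sqstm1, whose product p62 sequesters KEAP1, rose from 428 to 1376 FPKM in 4T1–HM and from 136 to 744 FPKM in 4T1–LM, and Trim21, a ubiquitin ligase that acts on p62, rose by 1.03 and 1.89. Bach1, the repressor that competes at antioxidant response elements, rose from 5.04 to 16.0 FPKM in 4T1–HM, and its log2 fold change was 0.86 in 4T1–LM. Nfe2l2, which encodes NRF2 itself, was at 33.0 FPKM in HM_Ctrl, 27.3 FPKM in HM_DFX, 23.8 FPKM in LM_Ctrl and 25.8 FPKM in LM_DFX. Keap1 had log2 fold changes of 0.08 in 4T1–HM and of 0.41 in 4T1–LM. The members that rose thus include a repressor, partners shared by activator and repressor, and genes of the KEAP1 system, while the transcripts of NRF2 and KEAP1 did not pass 2-fold.

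The other NRF2 targets divided as well. Of 31 expressed among 36 listed, 3 rose (background 6.93%) and 6 fell (12.4%) in 4T1–HM, with a median log2 fold change of −0.68. In 4T1–LM 2 rose (7.09%) and 4 fell (8.72%), with a median of −0.41. Hmox1, the heme oxygenase that both NRF2 and BACH1 control, rose from 34.2 to 169 FPKM in 4T1–HM and from 9.91 to 86.1 FPKM in 4T1–LM. Idh1, an NADPH–forming isocitrate dehydrogenase, fell by 2.32 and 2.02 on the log2 scale. Gsr, glutathione reductase, had log2 fold changes of −0.85 and −0.76, and the glycine transporter gene Slc6a9 had 0.93 in 4T1–HM and rose by 1.49 in 4T1–LM, with 28.4% of its 31–base words shared with other genes.

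Among the other glutathione and thiol enzymes, 2 of the 22 expressed rose (background 6.93%) and 6 fell (12.4%) in 4T1–HM. In 4T1–LM 2 rose (7.09%) and 3 fell (8.72%). The same 2 genes rose in both clones, Slc3a2 and Txnip, whose product binds thioredoxin (log2 fold changes of 1.85 and 2.17 for Txnip). Chac1, which breaks down glutathione and is a known ATF4 target, was at 154 FPKM in HM_Ctrl, 55.8 FPKM in HM_DFX, 35.3 FPKM in LM_Ctrl and 42.1 FPKM in LM_DFX. It fell in 4T1–HM (−1.45) and was at 0.25 in 4T1–LM, whereas Slc7a11, whose promoter window also holds the amino acid response core, rose in both. Whether ATF4 acted on either gene was not tested.

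Of the 26 expressed genes listed as other suppressors of ferroptosis, 2 rose (background 6.93%) and 6 fell (12.4%) in 4T1–HM. In 4T1–LM 3 rose (7.09%) and 4 fell (8.72%). Gch1, the first enzyme of tetrahydrobiopterin synthesis, rose by log2 fold changes of 1.75 and 2.17. Values of the genes that fell are given for 4T1–HM first. Scd2 (−1.64 and −1.06) and Mboat1 (−1.52 and −1.44) fell in both clones, as did the fatty acid desaturase gene Fads2, from 127 to 41.1 FPKM and from 139 to 68.8 FPKM. Scd1 was at −1.57 and −0.94, the sterol reductase gene Dhcr7 at −1.96 and −0.97 and the ESCRT gene Chmp6 at −1.80 and −0.91, each past 2-fold in 4T1–HM. Nfs1, which supplies sulfur for iron–sulfur clusters and is named here after its values were seen, was at −0.42 and fell in 4T1–LM (−1.11). The SCD desaturases and MBOAT1 favour monounsaturated chains in phospholipids, whereas DHCR7 consumes a sterol that traps radicals, so its known activity runs against the name of its list.

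Of the 20 expressed genes listed as other promoters of ferroptosis, 1 rose (background 6.93%) and 2 fell (12.4%) in 4T1–HM, near the background. In 4T1–LM 4 rose (7.09%) and 1 fell (8.72%). The gene that rose in both clones was Aloxe3 of the lipoxygenase family, from 1.02 to 12.9 FPKM in 4T1–HM and from 0.109 to 3.14 FPKM in 4T1–LM. Far1, which makes fatty alcohols for ether lipids, fell by 1.37 and 1.85 on the log2 scale. Cyb5r1, a cytochrome b5 reductase, rose from 17.3 to 50.7 FPKM in 4T1–LM and was at 23.9 and 35.5 FPKM in 4T1–HM. By log2 fold change, 4T1–HM first, Tfrc, the transferrin receptor, was at 0.77 and 0.81, and Ptgs2, a transcript often used as a sign of ferroptosis, at 0.87 and 0.67.

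**Figure D5:**
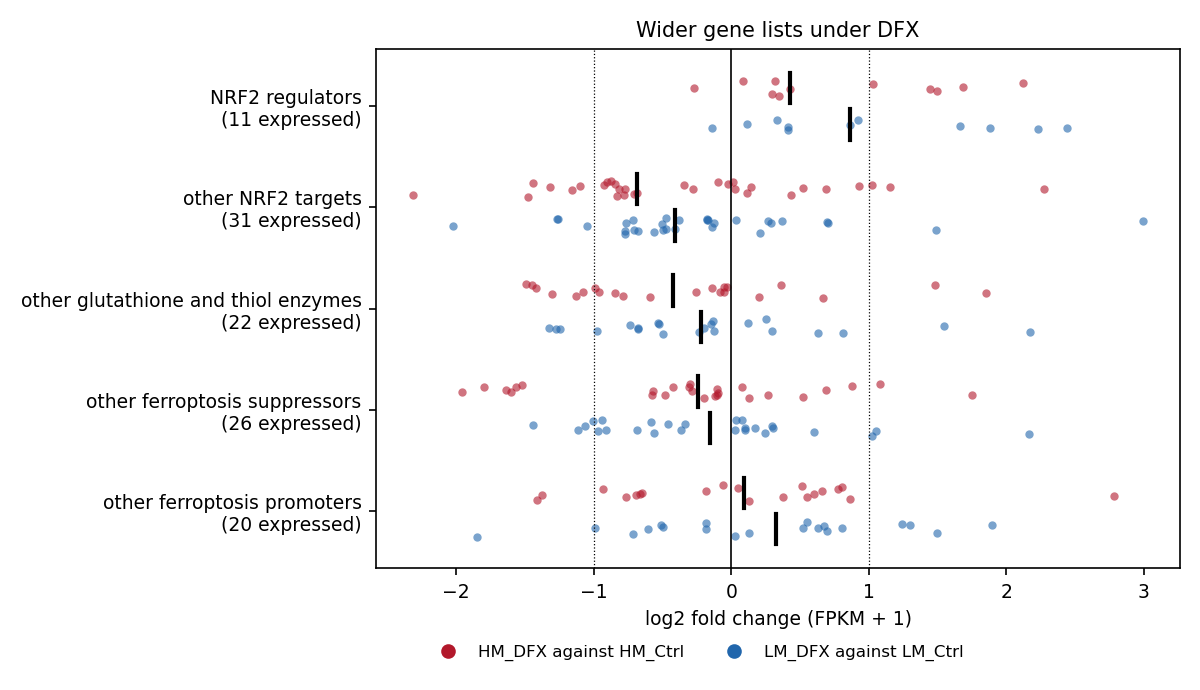
Log2 fold change of FPKM + 1 with DFX (horizontal) for the 110 further expressed genes in 5 lists (vertical), 1 point per gene, in 4T1–HM (red) and 4T1–LM (blue). Black bars mark medians and dotted lines 2-fold. The regulators of NRF2 have medians of 0.43 and 0.86, and the other NRF2 targets −0.68 and −0.41.

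Slc7a11 had the widest range of the 10 genes over the 4 libraries (2.49 on the log2 scale). The protein–coding genes with the most similar pattern of log2(FPKM + 1) around their own mean, among 6295 compared over 4 libraries, were Ifrd1, Dedd2 and Zbtb10, at distances of 0.18, 0.22 and 0.24. Dedd2 was at 2.34 FPKM in HM_Ctrl, 11.9 FPKM in HM_DFX, 1.53 FPKM in LM_Ctrl and 6.42 FPKM in LM_DFX. With 4 libraries such likeness describes these libraries only.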

How the data were processed

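RNA was sequenced from 4 cultures, 1 library each for HM_Ctrl, HM_DFX, LM_Ctrl and LM_DFX, grouped by their labels. The authors selected poly(A) RNA and made directional paired–end libraries, and the methods also mention depletion of ribosomal RNA. Per the labels and methods, they used FastQC, Trimmomatic, HISAT2 on mm10 and featureCounts, whose versions and strand setting are not given in the sources used here. The authors deposited FPKM for 49585 genes, unfiltered and unpooled, and every per–sample column was used.

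Fold changes are log2 ratios of FPKM + 1 (pseudocount 1), for the 12669 genes that reached 1 FPKM in any library, and 2-fold was called. The methods name edgeR, which was not run, because single libraries give no spread. Fragments were recovered from FPKM with GENCODE M21 exon lengths. Of 18236 genes above 0 with matching coordinates, 96.8% were whole within 0.02 in all 4 libraries, and so were all 10 genes described, Txnrd1 at a length solved from its own values. Exact Clopper–Pearson and Poisson intervals (95%) and SEs rest on these fragments and cover counting error only. Shared sequence is the percent of a gene's 31–base words found in another M21 gene, and values of a gene past 20% are called uncertain.

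The genes, lists and alternatives were chosen with earlier results of these data known. Named genes of the wider lists are those past 2-fold with DFX and at 10 FPKM or more in a library, at most 20 by size, plus Nfe2l2, Keap1, Bach1, Hmox1, Slc3a2, Gsr, Chac1, Ptgs2 and Tfrc. Of 38 that qualified by size, 20 are named. Recomputed were the same results at thresholds of 1.5-fold and 4-fold, with a pseudocount of 0.1, unfiltered or filtered on a mean of 1 FPKM, after scaling by median ratios or to the 75th percentile, and from fragment shares without a pseudocount. The calling was tested on simulated data. Python 3.11.15, pandas 2.3.3, SciPy 1.17.1 and matplotlib 3.10.9 were used.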

Additional observations from a re-analysis of the deposited data

Results flagged for a closer look

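Of the 10 genes, 5 (50%) had log2 fold changes with DFX of opposite sign in the 2 clones, as did 23.0% of expressed genes. With the 26 named from the wider lists, 36 in all, the number was 7 (19.4%). Of these 26, 20 were named for the size of the same fold changes, so the share over 36 genes cannot be compared with the background. The difference, 4T1–HM minus 4T1–LM, was 0.54 for Gclc, 0.89 for Gclm and 0.73 for Txnrd1, which were above 0 in 4T1–HM and below 0 in 4T1–LM. It was −0.81 for Gpx4, −0.70 for Lpcat3, −0.38 for Nfe2l2 and −1.70 for Chac1, which were below 0 in 4T1–HM and above 0 in 4T1–LM. With 1 library per condition these differences were not tested. Only that of Chac1 was past 2-fold, and Lpcat3 was at 0.03 in 4T1–LM with a counting interval from −0.11 to 0.16.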

How the results depend on the processing

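No replicate could be left out, since each condition had 1 library, and no paired analysis was possible because the libraries carry no replicate numbers. Of 80 recomputed counts of genes past the threshold, 63 were within 1.5 times the reported ones. The counts without a filter, and with the filter on a mean of 1 FPKM, could not differ, because every gene described passes both. With a pseudocount of 0.1, and with fragment shares without a pseudocount, Nqo1 joined Acsl4 as lower in HM_DFX than in HM_Ctrl (2 genes under each) and Lpcat3 became lower in HM_DFX than in LM_DFX (1 gene under each). Median–ratio scaling moved the median of all genes in HM_DFX against HM_Ctrl from −0.10 to 0 and left 0 genes lower in LM_DFX than in LM_Ctrl. At 1.5-fold, 5 genes were lower in HM_DFX than in HM_Ctrl, 3 were lower in LM_DFX than in LM_Ctrl, 1 was higher in HM_Ctrl than in LM_Ctrl, 3 were higher and 1 lower in HM_DFX than in LM_DFX, and the difference between the responses was past the threshold upward for 3 and downward for 3. At 4-fold, 0 genes were left in either direction with DFX in either clone, or higher in HM_DFX than in LM_DFX. Slc7a11 in 4T1–HM missed 4-fold only narrowly, at a log2 fold change of 1.9946. It was past 4-fold with a pseudocount of 0.1 (2.32) and from fragment shares without a pseudocount (2.36). The same held after scaling by median ratios (2.11) or to the 75th percentile (2.0010). Among single values, 185 recomputed ones moved by no more than their 95% counting error and 15 by more, and only the log2 difference of Acsl4 between HM_DFX and LM_DFX (−0.01) changed sign, to 0.03 under both scalings. The opposite signs of Gclc, Gclm, Gpx4, Lpcat3 and Txnrd1 in the clones held under both scalings, the only alternatives that could have changed a sign. Depth limits Nqo1 most, and culture to culture variation cannot be told apart from the effect of DFX or clone.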
